A study of Homo sapiens with 18 samples.

Results

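The genes described here are the metallothioneins MT1A, MT1E, MT1F, MT1G, MT1L, MT1M, MT1X and MT2A, the zinc exporter SLC30A1 and the zinc-sensing transcription factor MTF1. They were taken by name, 10 of the 23411 gene symbols in the count tables. Their values were not a criterion, but the list was chosen with earlier results of these data known. Their mRNA was measured by RNA sequencing of ARPE-19, an immortalized human retinal pigment epithelium line, in 18 libraries that form 6 groups of 3 replicates. The control cells, which the labels give as wild type, had been transduced with the Cas9 vector without a guide RNA. The NRF2-edited cells are a single clone, labelled C1, that received Cas9 and a guide directed at NFE2L2, the gene that encodes the antioxidant transcription factor NRF2. Each line was left untreated or was exposed to 0.2 mM H2O2, an oxidant, or to 1 mM NACET, the ethyl ester of N-acetylcysteine, a cell-permeant thiol. The exposure is given as 2 h after 22 h of culture in 1% serum in the labels of the samples and as 8 h after 40 h in 10% serum in the description of the series, so these sources conflict. The paper on the study follows the description of the series on time. It also gives 10% serum for the experiments that came after its comparison of serum levels, of which this is one. Because the edited line is 1 clone, an effect of the edit and a property of that clone cannot be told apart.

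Metallothioneins are small cysteine-rich proteins that hold zinc and copper through their thiol groups. Oxidation of these thiols releases zinc, and free zinc binds MTF1, which then occupies metal response elements in the promoters of the metallothionein genes and of SLC30A1 and raises their transcription. SLC30A1, at the plasma membrane, carries zinc out of the cell, so that the buffer and the exporter rise together in cells exposed to zinc. MTF1 itself is controlled mainly at the protein level. In the retinal pigment epithelium, a tissue rich in zinc, metallothioneins are known as an antioxidant and metal buffer.

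The libraries held 16673306 to 25951154 reads on genes. Of the markers of retinal pigment epithelium, MITF and OTX2 were abundant (64.8 to 185 and 107 to 181 CPM over all libraries), whereas RPE65, the retinoid isomerase of the visual cycle, had 0 or 1 read per library. RLBP1 and TYR, of the visual cycle and of melanin synthesis, had 0 to 8 and 0 to 12 reads, and PMEL, TYRP1, SERPINF1 and BEST1 were at 0.185 to 13.2 CPM in every library. The keratins KRT8 and KRT18 and the mesenchymal filament gene VIM were abundant in every library. NFE2L2 transcripts were called in no comparison (120 to 127 CPM in untreated control cells, 124 to 128 CPM in untreated NRF2-edited cells), and a count of reads does not show an edit within an exon. Libraries with the same replicate number deviated together from their group means within a cell line, with r between 0.467 and 0.867 over 11078 genes in 18 of 18 pairs, so for comparisons within a line the values with the replicate number as a block are given where they change a call of the members. Each such fit rests on 3 pairs of libraries. In these fits 43.8 to 55.7% of all genes had an unadjusted edgeR p under 0.05, against 18.6 to 30.7% without the block, so small p-values with the block are common.

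The 8 metallothioneins lie in a cluster on the long arm of chromosome 16 and the other members on chromosome 1, given here in the build of the count tables (hg19, GENCODE annotation lifted to GRCh37). MT2A spans chr16:56642496-56643409, MT1E chr16:56659387-56661024, MT1F chr16:56691643-56694610 and MT1X chr16:56716382-56718108, all on the plus strand, and each of MT2A, MT1F and MT1X has 3 exons. SLC30A1 spans chr1:211744910-211752503 and MTF1 chr1:38275246-38325264, both on the minus strand. The canonical transcript of MT1E has 2 exons and 746 bases, against 401 to 425 bases in MT2A, MT1X and MT1F. MT1L (chr16:56651475-56652592) is annotated as a transcribed pseudogene. The values count reads over the exons of each gene.

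Of the 8 metallothioneins, 4 carried the signal of the family. MT1A, MT1G and MT1M had 0 reads in 18 of 18 libraries, 0 of 383833298 reads on genes, which allows a level of up to 0.00782 CPM over all libraries (3 reads) and of up to 0.116 to 0.18 CPM in a single library. MT1L had 0 to 3 reads per library, 17 in all. The other metallothionein symbols in the files, 7 in number, were at 0 or at levels too low to test. Over the 18 libraries MT2A had 165026 reads, MT1E 33980, MT1X 1887 and MT1F 731, against 6349 for SLC30A1 and 10796 for MTF1. The filter on low counts therefore left 6 of the 10 members in every comparison: MT2A, MT1E, MT1X, MT1F, SLC30A1 and MTF1.

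Per kilobase of the canonical transcript, the untreated control cells held 713 ± 219 CPM of MT2A, 92.9 ± 12.1 of MT1E, 9.59 ± 2.35 of MT1X and 3.84 ± 1.92 of MT1F (SD, n = 3). On the same scale MTF1 was at 3.46 ± 0.296 and SLC30A1 at 2.89 ± 0.848. MT2A, MT1E and MT1X were each separated from the next gene by more than their spread, whereas MT1F, MTF1 and SLC30A1 were not separated from each other. The untreated NRF2-edited cells showed the same order at the top, with 944 ± 321 for MT2A, 105 ± 31.7 for MT1E and 8.58 ± 0.316 for MT1X, followed by MTF1 at 3.4 ± 0.301, MT1F at 2.89 ± 0.929 and SLC30A1 at 2.2 ± 0.574. Metallothionein copies resemble each other, and reads that matched several places, 8.24 to 10.4% of alignments per library, were not counted on genes. Of the stretches of 50 bases in the canonical transcript, 18% in MT1X, 10.3% in MT1E, 10.2% in MT2A and 6.12% in MT1F also occurred in another metallothionein gene, and of those of 75 bases 8.18% in MT1X, 1.64% in MT1E and none in MT2A or MT1F. As counts, the shared stretches of 50 bases were 72 of 697 in MT1E, 64 of 355 in MT1X, 36 of 352 in MT2A and 23 of 376 in MT1F. Both the level per kilobase and the shared percentage of MT1E depend on its longer canonical transcript. The split of reads between copies is uncertain to the extent of these shared stretches.

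Promoter sequences were at hand for MT2A, MT1X, SLC30A1 and MTF1, 4 of the 10 members (RefSeq, GRCh38.p14). Those of MT1A, MT1E, MT1F, MT1G, MT1L and MT1M were not analysed here. The 250 bases before the annotated start are shown for the 3 genes whose levels moved apart in these data, with matches to the metal response element core in capitals. The core was searched on both strands as TGCACNC and TGCGCNC, where N is any base. MT2A lies at chr16:56608334-56608583 on the plus strand, MT1X at chr16:56682220-56682469 on the plus strand and SLC30A1 at chr1:211579162-211579411 on the minus strand, the printed strand being that of the gene.
MT2A: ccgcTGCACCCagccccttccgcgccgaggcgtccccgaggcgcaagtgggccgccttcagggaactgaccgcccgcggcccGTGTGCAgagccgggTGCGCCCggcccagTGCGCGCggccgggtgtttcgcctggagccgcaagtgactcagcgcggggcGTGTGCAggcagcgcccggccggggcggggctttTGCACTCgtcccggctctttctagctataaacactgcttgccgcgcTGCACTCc
MT1X: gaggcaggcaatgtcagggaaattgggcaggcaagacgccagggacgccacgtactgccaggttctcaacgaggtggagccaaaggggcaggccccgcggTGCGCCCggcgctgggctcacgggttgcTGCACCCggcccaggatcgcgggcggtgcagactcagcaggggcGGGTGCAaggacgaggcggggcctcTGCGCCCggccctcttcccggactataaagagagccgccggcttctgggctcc
SLC30A1: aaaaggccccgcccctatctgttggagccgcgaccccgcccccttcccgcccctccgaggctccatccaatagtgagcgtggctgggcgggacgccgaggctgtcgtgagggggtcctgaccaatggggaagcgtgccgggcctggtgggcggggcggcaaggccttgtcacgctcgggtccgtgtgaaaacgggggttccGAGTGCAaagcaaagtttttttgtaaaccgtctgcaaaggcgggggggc
MT2A held 7 matches, MT1X 4, SLC30A1 1 and MTF1 none. At least 1 match stood in 24.8% of 35116 promoter windows of this length and at least 3 in 1.58%. The core of the antioxidant response element, to which NRF2 binds, was searched as TGACNNNGC on both strands and occurred once in each of MT2A, MT1X and SLC30A1, in none of MTF1, and in 10.9% of all windows. In these windows no match overlapped another. MT1H, with 8 matches to the metal response element core, and MT1B and MT4, with 3 each, had 0 reads in every library. These genes were named after their values were seen.

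Replicates of a group differed widely for these genes, and in a way that the replicate number shared. MT2A was highest in replicate 3 and lowest in replicate 1 in 6 of 6 groups, with a highest-to-lowest ratio within a group of 1.1 to 2.17. SLC30A1 was lowest in replicate 3 in 6 of 6 groups (ratio 1.7 to 2.24), and MTF1 was highest in replicate 1 and lowest in replicate 3 in 6 of 6 groups (ratio 1.16 to 1.49). MT1F ranged over 1.52 to 3.12 within a group. In replicate 3 the abundant buffer gene was thus highest and the exporter lowest. SLC30A1 was highest in replicate 1 in 4 groups and in replicate 2 in 2, so its order was not the full reverse of that of MT2A. Same-numbered libraries within a line deviated together over 11078 genes too (r 0.467 to 0.867). This spread enters every test without the block.

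The first comparison asked how the genes of zinc buffering respond to an oxidant. With H2O2, MT1F and MT1X rose in the NRF2-edited cells, 3.13-fold and 2.47-fold, and no member was called in the control cells without the replicate block. MT1F, a minor metallothionein copy, stood at 1.61, 0.822 and 1.25 CPM in the 3 untreated NRF2-edited libraries and at 4.75, 3.13 and 3.54 CPM after H2O2 (replicates 1, 2 and 3). Every treated library was above every untreated one, and the log2 fold change was 1.64 (SE 0.31, edgeR adjusted p = 0.0147). MT1X stood at 3.61, 3.37 and 3.42 CPM untreated and at 9.56, 7.46 and 8.60 CPM after H2O2. These groups did not overlap either, with a log2 fold change of 1.31 (SE 0.19, edgeR adjusted p = 0.00578). The share of all genes without overlap was not computed, here or below, so a lack of overlap only describes these libraries. The 2 called members of 6 compare with 9.81% of the 13543 genes tested, and DESeq2 also called 2, against 11.9% of genes. Markers of cell type moved with H2O2 in the same cells: of 6 tested retinal pigment epithelium genes BEST1, a chloride channel, rose (3.76 on the log2 scale, edgeR adjusted p = 0.00118) and MITF, a lineage transcription factor, fell by 0.74 (edgeR adjusted p = 0.0388), and of 3 mesenchymal genes ACTA2, smooth muscle actin, rose (1.05, edgeR adjusted p = 0.00786). The other mesenchymal genes, COL1A1 (-0.963) and VIM (-0.215), had the opposite sign and were not called. BEST1 went from 0.185 to 0.341 CPM untreated, near the level of 3 reads (0.116 to 0.18 CPM), to 2.92 to 3.53 CPM. With H2O2 in the control cells BEST1 was the 1 called gene of these lists (1.70, edgeR adjusted p = 0.00751), again from a low level (0.39 to 0.506 CPM untreated). MITF, OTX2, PMEL and TYRP1 had the opposite sign there and SERPINF1 the same. The summed level of all 9 pigment epithelium markers, nearly all of it MITF and OTX2, was 317 to 338 CPM untreated, 249.7 to 273 with H2O2 and 241 to 259 with NACET in the control libraries, and 284 to 342, 191 to 241 and 202 to 218 CPM in the NRF2-edited ones, so untreated libraries did not overlap the treated. The summed level of the 3 mesenchymal genes, nearly all of it VIM, was 5934 to 7000.0, 4334 to 5598 and 4718 to 6689 CPM in the control and 6423 to 6989, 5019 to 6421 and 5800.5 to 6876 CPM in the edited libraries. Their part in the values of the members was not tested. In bulk RNA a change in the number of cells that express a gene and a change in RNA per cell cannot be told apart.

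The other members had the same sign in the NRF2-edited cells without passing the test. MT1E, the second most abundant copy, was at 57.3, 74.5 and 104 CPM untreated and at 107, 108 and 158 CPM after H2O2, a log2 fold change of 0.66 (edgeR adjusted p = 0.102). SLC30A1 was at 16.4, 12.9 and 9.63 CPM untreated and at 29.2, 18.2 and 16.9 CPM after H2O2, a log2 fold change of 0.73 (edgeR adjusted p = 0.105). Neither gene had overlapping groups, though for SLC30A1 only 16.9 against 16.4 CPM kept them apart, and the share of all genes without overlap is not given. With the replicate number as a block, both were called, MT1E at 0.68 (edgeR adjusted p = 1.46e-08) and SLC30A1 at 0.72 (edgeR adjusted p = 1.6e-06), which made 4 of 6 members against 18.7% of all genes in that fit. MT2A, by far the most abundant copy, had a log2 fold change of 0.40 (edgeR adjusted p = 0.378) and MTF1 one of 0.24 (edgeR adjusted p = 0.359). The median over the 6 members was 0.70, against -0.009 over all genes tested. The call of MT1F was lost without replicate 2 (log2 fold change 1.41, edgeR adjusted p = 0.0655) and without replicate 3 (1.67, adjusted p = 0.0574) of the untreated group, and MT1E was called without replicate 1 of the H2O2 group (0.77, adjusted p = 0.0398).

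In the control cells none of the 6 members passed both limits, against 6.33% of 13691 genes, although 6 of 6 had a positive log2 fold change with a median of 0.59 (-0.004 over all genes). An unadjusted p under 0.05 in edgeR was reached by 3 members, as by 30.7% of all genes. MT1F was at 2.16, 2.05 and 0.690 CPM untreated and at 4.42, 4.11 and 2.16 CPM after H2O2, so that each library was 2.05, 2.01 and 3.13 times that of its own replicate number, while the lowest treated library stood at the level of the highest untreated one. Its log2 fold change was 1.14 (SE 0.42, edgeR adjusted p = 0.11). SLC30A1 was at 19.8, 20.1 and 11.3 CPM untreated and at 28.9, 34.0 and 19.0 CPM after H2O2, 0.70 on the log2 scale (SE 0.27, edgeR adjusted p = 0.118), with overlapping groups. MT1X had a log2 fold change of 0.80 (SE 0.37, edgeR adjusted p = 0.181). The block called these 3 members, MT1F (edgeR adjusted p = 0.000136), MT1X (0.001) and SLC30A1 (2.69e-06), against 10.2% of all genes. DESeq2 without the block called MT1F (adjusted p = 0.0498) and SLC30A1 (0.0477), 2 members, against 7.13% of genes. MT1E, at 58.9, 74.7 and 74.2 CPM untreated and at 91.3, 107 and 90.2 CPM after H2O2, passed the adjusted p alone (log2 fold change 0.49, SE 0.11, edgeR adjusted p = 0.0285), under the fold limit of 0.6. MT2A was at 212, 263 and 382 CPM untreated and at 300, 319 and 332 CPM after H2O2, where replicate 3 was lower than its untreated library. Its log2 fold change was 0.17 (edgeR adjusted p = 0.578), and that of MTF1 was 0.23 (edgeR adjusted p = 0.239). Without replicate 3 of the H2O2 group MT1X was called (1.11, edgeR adjusted p = 0.0431).

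The second comparison asked the same of a thiol donor. With NACET no member was called in either line, and the members did not share a sign. MT2A in the NRF2-edited cells was at 237, 410 and 489 CPM untreated and at 443, 742 and 962 CPM after NACET. Each library exceeded that of its own number by 1.87, 1.81 and 1.97 times, while the lowest treated library lay between the untreated ones. The log2 fold change was 0.91 (SE 0.33, edgeR adjusted p = 0.191) and became 0.90 once replicate numbers entered as a block (edgeR adjusted p = 4.37e-08). In the control cells MT2A was at 244, 339 and 527 CPM after NACET, 1.15, 1.29 and 1.38 times the untreated libraries of the same number, and its log2 fold change of 0.37 (SE 0.30, edgeR adjusted p = 0.536) stayed below the fold limit with the block too (0.34, edgeR adjusted p = 2.74e-07). Without replicate 1 of the NACET group the MT2A value in the NRF2-edited cells was called (1.16, edgeR adjusted p = 0.0499).

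MT1F and the exporter had negative values with NACET. MT1F was at 1.11, 0.968 and 0.418 CPM in the control cells and at 0.375, 0.493 and 0.866 CPM in the NRF2-edited cells, below the untreated library of the same number in 6 of 6 pairs. The log2 fold changes were -1.0 (SE 0.50, edgeR adjusted p = 0.306) and -1.07 (SE 0.40, edgeR adjusted p = 0.204), and both were called with the block (-0.96 with edgeR adjusted p = 0.00173, and -1.10 with 0.0174). SLC30A1 was at 13.5, 13.0 and 7.23 CPM after NACET in the control cells, 0.681, 0.645 and 0.641 times the untreated libraries. Its log2 fold change was -0.61 (SE 0.29, edgeR adjusted p = 0.283), called with the block (-0.61, edgeR adjusted p = 1.58e-08). In the NRF2-edited cells SLC30A1 was at 14.9, 8.55 and 6.66 CPM, with a log2 fold change of -0.37 (SE 0.32, edgeR adjusted p = 0.597) that the block left uncalled (-0.40, edgeR adjusted p = 0.0136, under the fold limit). MT1X was at 2.87, 4.79 and 2.97 CPM in the control cells and at 3.38, 3.40 and 3.88 CPM in the NRF2-edited cells, with log2 fold changes of -0.14 and 0.03. MT1E had -0.16 and 0.34 and MTF1 -0.09 and -0.09, with no call in either fit.

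Counted over members, NACET gave 0 of 6 in the control cells (2.75% of 13696 genes) and 0 of 6 in the NRF2-edited cells (1.39% of 13542 genes) with edgeR, and 0 in both with DESeq2 (4.22% and 4.29% of genes). An unadjusted edgeR p under 0.05 was reached by 0 members in the control cells and by 2 in the NRF2-edited cells, as by 20.8% and 18.6% of all genes. The block gave 2 of 6 in each line, MT1F and SLC30A1 in the control cells and MT1F and MT2A in the NRF2-edited cells, against 7.49% and 8.82% of all genes. The medians over the 6 members, -0.15 and -0.03, hide the opposite signs of MT2A and MT1F.

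**Figure D1:**
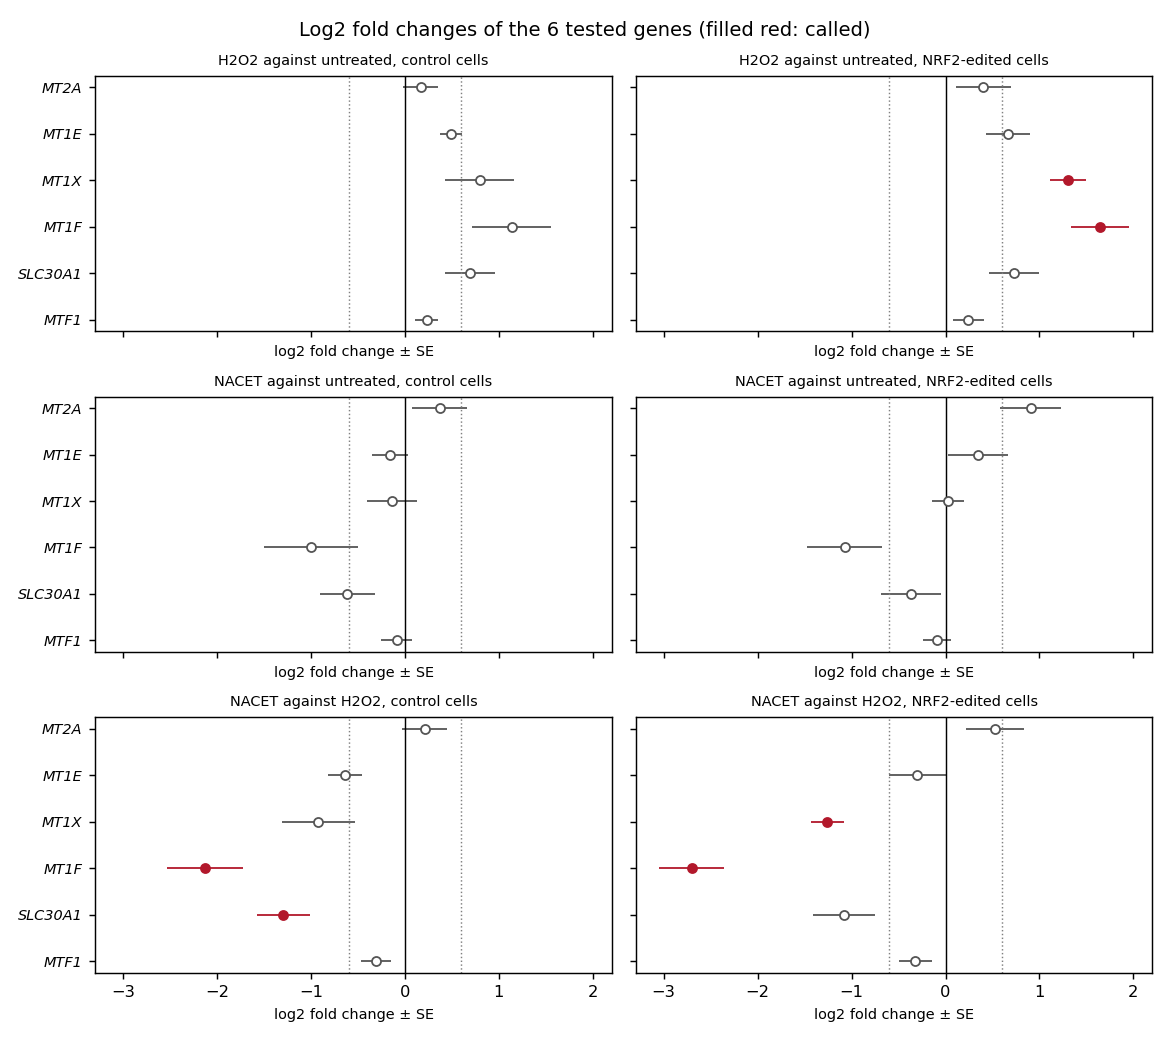
Log2 fold changes of the 6 tested members in 6 comparisons within a cell line, with standard errors from edgeR without the replicate block (3 libraries per group). Filled red points passed both limits, dotted lines mark a log2 fold change of 0.6 in either direction. H2O2 values lie at or above 0.17 for every member in both lines, whereas NACET values run from -1.07 for MT1F to 0.91 for MT2A in the NRF2-edited cells.

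Set directly against each other, the treatments separated MT1F in both lines. This comparison was added after the values above had been seen and uses the same libraries. In the control cells MT1F was lower in NACET than in H2O2, 0.229 times its level (log2 fold change -2.13, SE 0.41, edgeR adjusted p = 0.0259), as was SLC30A1 at 0.407 times (-1.30, SE 0.28, edgeR adjusted p = 0.0391). In the NRF2-edited cells MT1F was at 0.154 times its H2O2 level (-2.70, SE 0.35, edgeR adjusted p = 0.00608) and MT1X at 0.418 times (-1.26, SE 0.18, edgeR adjusted p = 0.00801). For these 4 results the H2O2 and NACET libraries did not overlap. The share of all genes without overlap is not given for this or any other comparison. The calls made 2 of 6 members in each line, against 3.67% of 13581 and 8.31% of 13489 genes. SLC30A1 in the NRF2-edited cells had a log2 fold change of -1.08 (SE 0.33, edgeR adjusted p = 0.083) without overlap of its groups, and was called with the block (-1.11, edgeR adjusted p = 4.06e-08). MT1E and MT1X in the control cells, at -0.64 (edgeR adjusted p = 0.0811) and -0.92 (0.2), were called with the block as well (0.000388 and 0.00133). The block gave 4 of 6 members in the control cells and 3 of 6 in the NRF2-edited cells, against 7.5% and 15.5% of all genes. DESeq2 without the block called 3 of 6 in each line, MT1E (adjusted p = 0.0135) beside MT1F and SLC30A1 in the control cells and SLC30A1 (0.0116) beside MT1F and MT1X in the NRF2-edited cells, against 4.74% and 10.2% of genes. BEST1 and ACTA2 were also lower in NACET than in H2O2, at -1.49 and -0.998 on the log2 scale in the control cells (edgeR adjusted p = 0.0433 and 0.00201) and at -3.04 and -1.345 in the NRF2-edited cells (0.00274 and 0.00557). BEST1 was the 1 called of 6 tested pigment epithelium markers in each line. TYRP1, PMEL and SERPINF1 had the opposite sign to BEST1, at 0.465, 0.171 and 0.068 in the control cells and 0.403, 0.014 and 0.256 in the NRF2-edited cells. MITF and OTX2 had negative values between -0.139 and -0.014. COL1A1 and VIM had the opposite sign to ACTA2, at 0.767 and 0.184 in the control cells and 0.897 and 0.179 in the NRF2-edited cells. Neither was called. MT2A had the opposite sign in both lines, 0.21 and 0.53, and was not called.

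In the control cells these calls depended on single libraries. MT1F was not called without replicate 1 (log2 fold change -1.95, edgeR adjusted p = 0.0796) or 2 (-2.0, 0.109) of the H2O2 group or without replicate 2 of the NACET group (-2.26, 0.101). SLC30A1 was not called without replicate 1 (-1.25, edgeR adjusted p = 0.105) or 2 (-1.11, 0.145) of the H2O2 group or without replicate 1 (-1.47, 0.0527) or 2 (-1.42, 0.116) of the NACET group. MT1E was called there without replicate 3 of the NACET group (-0.86, 0.0133). In the NRF2-edited cells MT1F and MT1X were called in 6 of 6 such fits, and SLC30A1 was called without replicate 1 of the NACET group (-1.51, edgeR adjusted p = 0.0282).

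The third question was whether the NRF2 edit changed these genes. No member was called between the lines, untreated (0 of 6, 3.85% of 13710 genes), under H2O2 (0 of 6, 5.62% of 13580 genes) or under NACET (0 of 6, 4.76% of 13627 genes) with edgeR. MT2A had the most positive value of the members each time, with log2 fold changes of the NRF2-edited over the control cells of 0.40 (SE 0.28, edgeR adjusted p = 0.608) untreated, 0.65 (SE 0.20, 0.0966) under H2O2 and 0.94 (SE 0.33, 0.175) under NACET. Only under H2O2 did its groups not overlap, 300 to 332 CPM against 353 to 659 CPM. MT1E followed with 0.18, 0.37 and 0.68, and SLC30A1 had negative values, -0.40, -0.35 and -0.15. An unadjusted edgeR p under 0.05 was reached by 0, 1 and 1 members in the 3 conditions, as by 13.7, 23.7 and 18.6% of all genes. DESeq2 called MT2A under H2O2 (adjusted p = 0.0312) and under NACET (0.0328) and no member untreated, against 4.4, 7.07 and 5.44% of genes in the 3 conditions. Without replicate 1 of the NRF2-edited H2O2 group, MT2A (0.84, edgeR adjusted p = 0.00207) and SLC30A1 (-0.65, 0.0455) were called, and without replicate 1 of the NRF2-edited NACET group MT2A (1.20, 0.0462) and MT1E (0.97, 0.0402) were. Of the pigment epithelium markers, BEST1 was higher in the NRF2-edited cells under H2O2 (1.13, edgeR adjusted p = 0.0191), 1 of 6 tested. MITF (-0.685) and OTX2 (-0.016) had the opposite sign there, and PMEL, TYRP1 and SERPINF1 the same sign. MITF was lower in the NRF2-edited cells under NACET (-0.74, edgeR adjusted p = 0.0198), 1 of 5 tested. OTX2 (0.067), PMEL (0.206), TYRP1 (0.551) and SERPINF1 (0.286) had the opposite sign under NACET. None of these markers was called untreated. No keratin or mesenchymal gene was called between the lines. The part of these markers in the values of the members was not tested.

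Whether the response itself differed between the lines was tested as an interaction. No member passed an adjusted p of 0.05 for H2O2 (0 of 6, 0.0214% of 13987 genes) or NACET (0 of 6, 0.0643% of 14002 genes), none had an unadjusted p under 0.05 (5.76% and 1.63% of all genes), and DESeq2 called none (0.502% and 0.177% of genes). The H2O2 interactions ran from 0.03 for MTF1 to 0.53 for MT1X on the log2 scale, with standard errors of 0.20 and 0.44. Without the block, MT1X and MT1F were thus called in the NRF2-edited cells and not in the control cells, with no detectable difference of their responses at this replication. With the block both were called in the control cells too (edgeR adjusted p = 0.001 and 0.000136). For NACET, MT2A had an interaction of 0.54 (SE 0.50, edgeR adjusted p = 1). With a replicate block within each cell line it was 0.56 (edgeR adjusted p = 0.00181) and the 1 member called, against 0.9% of all genes.

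Added up over 15 metallothionein symbols, the family took 276 to 1105 CPM per library. The sums are descriptions without a test. Untreated control cells had 361 ± 93.1 CPM, those with H2O2 423 ± 19.2 and those with NACET 437 ± 160 (SD, n = 3). The NRF2-edited cells had 462 ± 151 CPM untreated, 635 ± 180 with H2O2 and 821 ± 302 with NACET. MT2A supplied 72.5 to 87.8% and MT1E 11.4 to 24.2% of the reads of a library, so the sum followed MT2A and carried little of the changes in MT1F and MT1X.

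The make-up of the family is given as a description, without a test. The number of MT2A reads per MT1E read, which needs no scaling between libraries, was 3.59, 3.52 and 5.15 in untreated control cells, 3.29, 2.99 and 3.68 with H2O2 and 5.31, 5.61 and 6.61 with NACET. Every NACET library was above every other library of the control cells. In the NRF2-edited cells it was 4.14, 5.51 and 4.70 untreated, 3.31, 4.51 and 4.18 with H2O2 and 7.67, 7.05 and 6.96 with NACET, again without overlap between NACET and the rest. Untreated and H2O2 libraries overlapped in both lines. The share of MT1F in the summed reads was 0.15 to 0.781% untreated, 0.505 to 1.1% with H2O2 and 0.0685 to 0.377% with NACET in the control cells, with overlap of the untreated group with both others. In the NRF2-edited cells it was 0.168 to 0.538%, 0.426 to 1.0% and 0.0579 to 0.0784%, with overlap of the untreated and H2O2 groups.

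**Figure D2:**
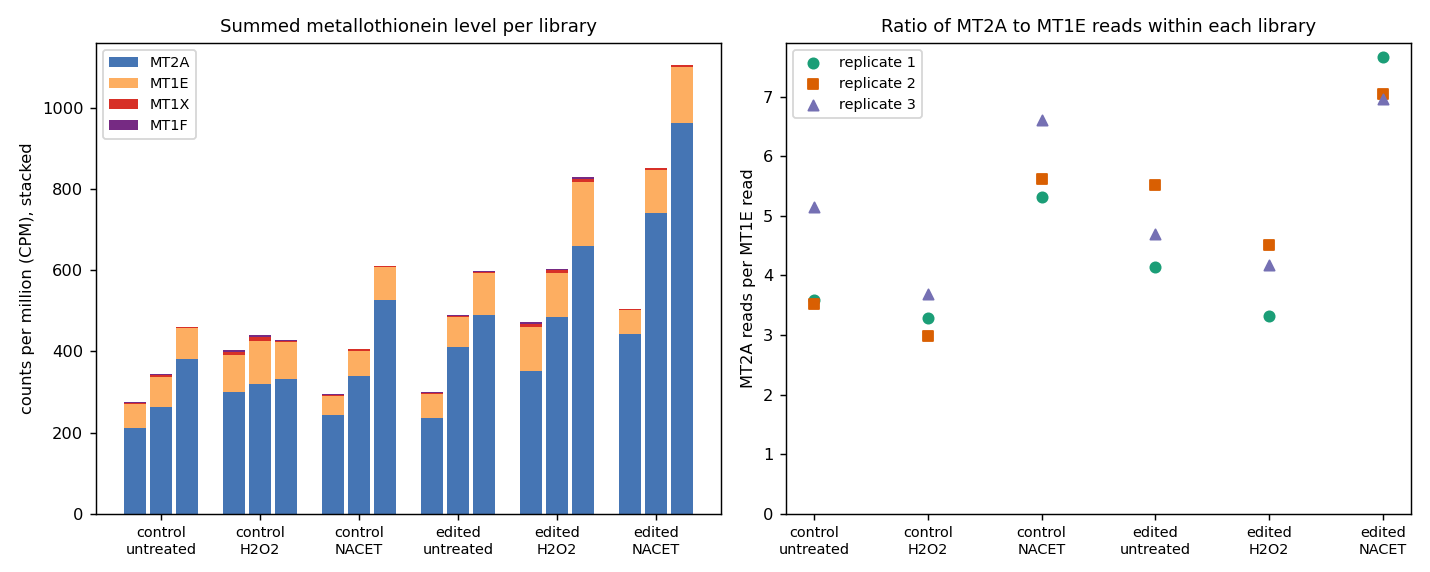
Left, level of MT2A, MT1E, MT1X and MT1F stacked per library (CPM, linear axis from 0), 3 bars per group for replicates 1, 2 and 3 in that order. Right, MT2A reads per MT1E read in each library, marked by replicate number. The NACET libraries lie between 5.31 and 7.67, above all others of their cell line, and the sums within a group differ with the replicate.

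Among the other genes of zinc and copper transport, the importer SLC39A14 was called most often. SLC39A14, a plasma membrane importer of zinc, iron and manganese, was at 166, 196 and 146 CPM in untreated control cells and at 324, 371 and 239 CPM after H2O2. It rose with H2O2 in the control cells (log2 fold change 0.90, SE 0.17, edgeR adjusted p = 0.0163) and in the NRF2-edited cells (1.23, SE 0.17, edgeR adjusted p = 0.00519). With NACET it rose in the NRF2-edited cells (0.88, SE 0.12, edgeR adjusted p = 0.0217), from 162, 179 and 160 CPM to 305, 341 and 281 CPM. In the control cells with NACET its value of 0.63 was called only with the block (edgeR adjusted p = 0.0828 without and 1.7e-21 with it). It was the 1 called gene of 11 tested SLC39A importers in each of those 3 comparisons, a share near that of all genes for H2O2 (6.33% in the control and 9.81% in the NRF2-edited cells) and above the 1.39% for NACET. In contrast to SLC30A1, SLC39A14 thus had positive values with both treatments.

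Other transporters were called rarely. Of 6 tested SLC30A genes beside SLC30A1, 0 were called in any comparison with edgeR without the block. With the block 1 was called for H2O2 in the NRF2-edited cells, SLC30A3, a vesicular zinc transporter (-0.77, edgeR adjusted p = 0.0464), and 1 for NACET against H2O2 there, SLC30A4 (0.67, edgeR adjusted p = 0.000489). Of 10 copper-handling genes, SCO1, a mitochondrial copper chaperone, rose with H2O2 in the NRF2-edited cells (0.62, SE 0.13, edgeR adjusted p = 0.021), 1 of 10 where 9.81% of all genes were called. With the block ATP7A, a copper-exporting ATPase, was called for NACET against H2O2 in the NRF2-edited cells (0.60, edgeR adjusted p = 0.000285). SLC30A3, SLC30A4 and ATP7A were named after their values were seen. The same holds for SLC39A10 and SLC39A8, called without the block only in the added comparison of NACET with H2O2. NACET against H2O2 gave higher SLC39A10, a zinc importer, in the control cells (0.69, SE 0.14, edgeR adjusted p = 0.0331) and higher SLC39A8, an importer of zinc and manganese, in the NRF2-edited cells (0.62, SE 0.14, edgeR adjusted p = 0.0322). SLC39A10 was at 42.7, 33.0 and 44.7 CPM with H2O2 and at 73.6, 63.3 and 58.7 CPM with NACET in the control cells, opposite in direction to SLC30A1 and MT1F. In the NRF2-edited cells its value of 0.77 was called only with the block (edgeR adjusted p = 0.0611 without and 9.84e-08 with it). No gene of these lists was called between the lines or as an interaction.

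**Figure D3:**
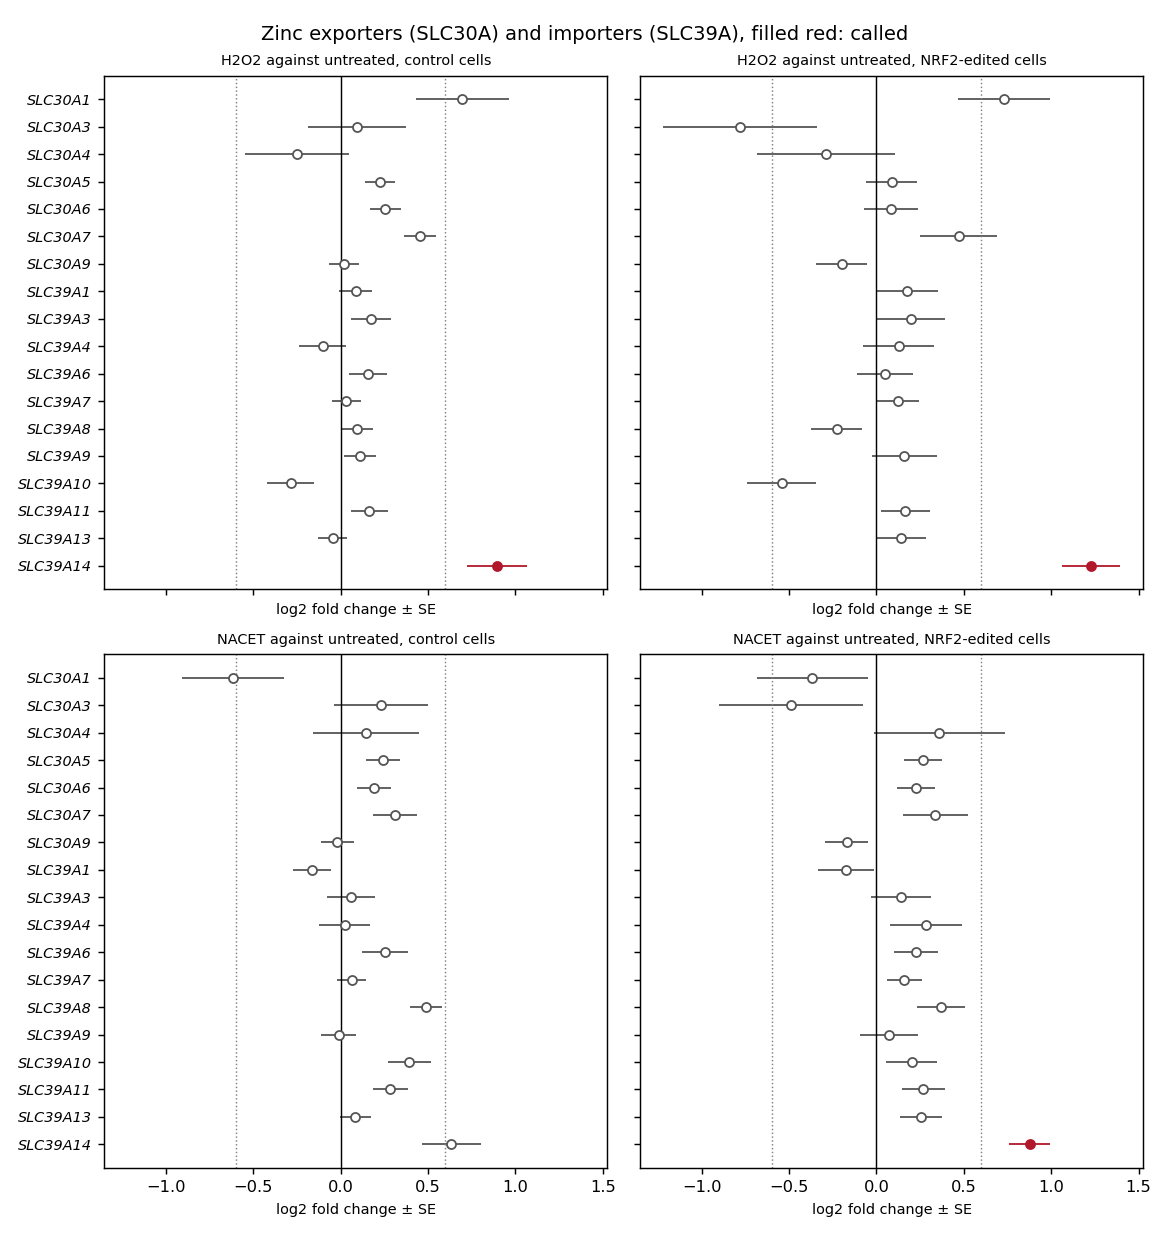
Log2 fold changes with standard errors (edgeR, 3 libraries per group, no block) of the tested zinc exporters (SLC30A) and importers (SLC39A) for H2O2 and NACET in both lines. Filled red points passed both limits and dotted lines mark 0.6 in either direction. SLC39A14 is the called gene in 3 of the 4 panels, and SLC30A1 is positive with H2O2 and negative with NACET.

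Over the 18 libraries some members had like profiles, without a sharp division into groups. These correlations of log2 CPM are descriptions, since the libraries share groups and replicate numbers. MT1X and MT1F had r = 0.81, MT1F and SLC30A1 0.829, MT1X and SLC30A1 0.699, and SLC30A1 and MTF1 0.853. MT2A correlated with MT1E (0.709), not with MT1X (0.011), and negatively with SLC30A1 (-0.62). MT1E also correlated with MT1X (0.559) and MT1F (0.368), the former above MT1X with MTF1 (0.535). After subtraction of the mean of each cell line the values were 0.83, 0.834, 0.752 and 0.867 for the pairs named first and 0.635, -0.064 and -0.606 for MT2A. This subtraction left the differences between treatments and between replicate numbers in the values.

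The 5 genes outside the members with the most similar profiles were sought among 12842 for MT2A, SLC30A1 and MT1X. For MT2A these were SMAGP (r = 0.957), SLC29A1 (0.947), TIMM10 (0.947), RNF34 (0.944) and PSMD2 (0.942), each at 0.915 or more after centring by line. For SLC30A1 they were SYNE1 (0.942), DDR2 (0.938), DNHD1 (0.933), PLEKHM3 (0.928) and HSPA4L (0.928), and for MT1X they were CSNK2A1P (0.898), GRB10 (0.893), HMGXB3 (0.886), M6PR (0.885) and ANKRD11 (0.879).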

How the data were processed

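RNA of 18 samples was sequenced (TruSeq RNA v2, single-end). Per the submitters' notes and the study's methods, the authors aligned reads to hg19 with TopHat2 2.1.0, counted reads per gene with HTSeq 0.11.2 without strand, and removed ribosomal RNA genes. The annotation release is not given in the sources used here. The deposited values are raw counts per gene symbol, 1 file per sample. Their 5 summary lines were left out: 25.8 to 27.9% of reads fell on no single gene.

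Counts were analysed with R 4.3.3 and edgeR 4.0.16 (filterByExpr, TMM, glmQLFit and glmQLFTest). Each comparison used its own 6 libraries, interactions 12, without a block. P-values were adjusted by Benjamini-Hochberg over all genes tested. A gene was called at an adjusted p under 0.05 and an absolute log2 fold change of at least 0.6, and an interaction at the adjusted p alone. The study's methods name DESeq2 with default settings for these data, and the fold limit is one it states for a related experiment. All tests were two-sided. CPM were TMM-scaled over 18 libraries, and log2 CPM used a prior count of 2. Levels per kilobase used the length of the canonical transcript. The fits were tested on simulated data. Promoter windows were read from a RefSeq table with Python 3.11.15.

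Alternatives were DESeq2 1.42.0, RLE size factors, no filter, a filter of 1 CPM in 3 samples, 1 fit of all 18 samples, no fold limit, library size alone for the summed CPM, the replicate number as a block and leaving out each library. Same-numbered libraries deviated together within a line (r 0.467 to 0.867), but between the lines replicate 2 did not (r -0.25 to -0.036, against 0.589 to 0.772 for replicates 1 and 3), so the numbers were taken to pair libraries within a line only, a pairing requiring every pair. Replicates differed by more than sampling noise. The labels do not say that replicates were separate cultures, so p-values measure the spread between these libraries, and limits from a count of 0 cover counting error only. The members and the gene lists were chosen with earlier results of these data known. All members are named, with NFE2L2, metal transport and copper genes of the lists called in a planned comparison without the block, cell type markers, and the 5 genes most correlated with MT2A, MT1X and SLC30A1 at a mean of at least 1 CPM. Outside this rule, SLC39A8, SLC39A10, SLC30A3, SLC30A4, ATP7A, MT1H, MT1B and MT4 were named after their values were seen.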

Additional observations from a re-analysis of the deposited data

How the results depend on the processing

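Of 874 refits of single members, 781 kept the direction and the call of the reported value, 32 gained a call, 9 lost one and 52 changed sign. The calls of MT1F, MT1X and SLC30A1 held under the alternatives other than leaving out a library (6 of 6 for each call).

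The count of called members changed as follows. In the control cells with H2O2 it was 0, with DESeq2 2, with the replicate block 3 and without the fold limit 1 (13.2% of all genes). With the block it was 4 for H2O2 in the NRF2-edited cells, 2 for NACET in each line and 4 for NACET against H2O2 in the control cells, and with the block within each cell line 1 for the NACET interaction. Between the lines DESeq2 gave 1 under H2O2 and 1 under NACET. Replicate numbers did not pair libraries between the lines, where the block gave 0 untreated, 1 under H2O2 (MT2A, 0.60 on the log2 scale, edgeR adjusted p = 0.00763) and 2 under NACET (MT2A, 0.95, 0.000691, and MT1E, 0.64, 0.00543), against 6.15, 11.2 and 7.47% of all genes. The block shared by both lines gave 0 for both interactions. Without 1 library the count was 0 to 1 for H2O2 in the control cells, 1 to 3 in the NRF2-edited cells, 0 to 1 for NACET in the NRF2-edited cells, 0 to 2 between the lines under H2O2 and under NACET, and 0 to 3 for NACET against H2O2 in the control cells, where the share of all genes ran over 2.09 to 7.57%, 2.0 to 18.8%, 0.0 to 3.38%, 2.91 to 17.6% and 2.3 to 6.66%, and 1.2 to 4.28% in that order. DESeq2 gave 3 for NACET against H2O2 in each line. Over all genes the block moved the count of calls with H2O2 from 867 to 1400 in the control and from 1329 to 2538 in the NRF2-edited cells, and with NACET from 376 to 1026 and from 188 to 1195. The cause of these shifts was not tested.

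Changes of sign concerned uncalled values. MTF1 moved to 0.013 under H2O2 between the lines with 1 fit of all 18 samples, and as a NACET interaction to 0.013 with no filter and 0.024 with 1 fit of all 18 samples. Without 1 library the log2 values ran, for NACET in the control cells, over -0.41 to 0.067 (MT1X), -0.38 to 0.011 (MT1E) and -0.26 to 0.045 (MTF1), and for NACET in the NRF2-edited cells over -0.039 to 0.072 (MT1X). Between the untreated lines they ran over -0.11 to 0.057 (MTF1), -0.29 to 0.046 (MT1X) and -0.053 to 0.35 (MT1E), under H2O2 over -0.12 to 0.12 (MTF1) and -0.19 to 0.26 (MT1F), and under NACET over -0.12 to 0.27 (MT1X), -0.56 to 0.084 (SLC30A1) and -0.17 to 0.14 (MTF1). For NACET against H2O2 in the control cells MT2A ran over -0.13 to 0.43. The H2O2 interactions ran over -0.24 to 0.27 (SLC30A1), -0.079 to 0.16 (MTF1), -0.013 to 0.49 (MT2A) and -0.023 to 0.45 (MT1E), and the NACET interactions over -0.038 to 0.43 (MT1X), -0.14 to 0.17 (MTF1), -0.50 to 0.29 (MT1F) and -0.15 to 0.48 (SLC30A1).

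MT1F rests on 731 reads in all, at most 97 in a library, and 3 replicates per group limit every test.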
